A study of Mus musculus with 16 samples.

Results

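The 8 genes described here encode proteins of the red cell membrane and of the spectrin skeleton beneath it: Slc4a1, Ank1, Sptb, Epb42, Dmtn, Rhag, Rhd and Kel. They were taken as a list of names, matched through the RefSeq identifier that each array probe carries, and all 8 were found among 16535 genes with a named probe. They are covered by 16 probes, of which 15 entered the tests. Each of the 16 arrays held 2 colours. Cy5 carried RNA from a mouse given a subcutaneous graft of Hepa1-6 cells, a cultured mouse hepatoma line, and collected 10 days afterwards. On 8 arrays that RNA came from blood. On the other 8 it came from TIC, cells released by mashing the tumour and enriched for infiltrating inflammatory cells on a density gradient. Cy3 carried blood RNA of an untreated C57Bl/6 mouse on every array. All mice were female, and the strain field reads C57Bl/6 for both channels, while the treatment text calls the grafted mice athymic. Blood and TIC RNA were extracted with different kits, the dyes were not swapped, and the reference was not replicated, so the spread between untreated mice is not part of any test. The sample numbers run from 889 to 898 in both groups, but nothing in the labels says that each number is a separate mouse, so p-values measure only the spread between these samples.

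In a mature red cell, a flexible network of spectrin lines the inner face of the membrane. Ankyrin fastens this network to band 3, the chloride and bicarbonate exchanger, and the product of Epb42, a catalytically inactive relative of transglutaminases, strengthens that contact. A second attachment lies at the actin junctions, where short actin filaments join the spectrin tails. The Rh proteins sit with band 3 in the membrane, and the Kell protein is a surface endopeptidase attached to the junctional complex. Inherited loss of ankyrin, spectrin, band 3 or the Epb42 protein gives fragile, spherical red cells. The genes are transcribed in erythroid precursors, and young red cells in blood (reticulocytes) still carry the messages after the nucleus has gone.

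Many probes gave weak signal, and the groups differed in how many. In blood, 24.8 to 36.3% of probes were well above the local background in Cy5, against 51.1 to 65.8% in TIC. Log ratios over all probes correlated at 0.51 to 0.79 between blood arrays, 0.80 to 0.97 between TIC arrays, and between -0.30 and -0.08 across the groups; the labels give the dyes, so the direction is kept. Each group filled 2 slides of 4 arrays, so slide and group cannot be told apart. Detection of marker lists was counted in both groups. All 11 measured leukocyte markers, such as Ptprc and Itgam, were well above background on every TIC array, as were 9 to 11 of them on each blood array. Detection in both groups cannot test the enrichment that the TIC label states. Of 8 hepatoma markers, such as Afp and Alb, 7 or 8 were well above background on each TIC array, against 1 to 3 on each blood array.

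Upstream sequence was available from RefSeq (GRCm38.p6) for 5 of the 8 genes: Sptb, Epb42, Rhag, Rhd and Kel. The 250 bases before the start site were searched on both strands for AGATAA, 1 form of the site bound by GATA factors. They were also searched for CCNCNCCC, the core of the CACCC box bound by the erythroid factor KLF1. These stretches are shown because the genes move together in the arrays, and the capitals mark the matches. They lie at chr6:41704326-41704575 (minus strand) for Kel, chr4:134864286-134864535 (plus) for Rhd, chr2:121036878-121037127 (minus) for Epb42 and chr12:76710548-76710797 (minus) for Sptb, each printed 5′ to 3′ in the direction of its gene.
Kel: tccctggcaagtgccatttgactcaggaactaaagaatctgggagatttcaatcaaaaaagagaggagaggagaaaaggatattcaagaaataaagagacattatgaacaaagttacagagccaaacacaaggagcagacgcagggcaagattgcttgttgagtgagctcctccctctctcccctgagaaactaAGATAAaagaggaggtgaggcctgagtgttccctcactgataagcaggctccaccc
Rhd: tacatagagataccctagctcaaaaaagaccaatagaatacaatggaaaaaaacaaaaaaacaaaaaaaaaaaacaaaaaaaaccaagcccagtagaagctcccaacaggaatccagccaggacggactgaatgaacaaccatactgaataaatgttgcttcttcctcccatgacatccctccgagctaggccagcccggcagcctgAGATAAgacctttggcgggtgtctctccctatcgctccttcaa
Epb42: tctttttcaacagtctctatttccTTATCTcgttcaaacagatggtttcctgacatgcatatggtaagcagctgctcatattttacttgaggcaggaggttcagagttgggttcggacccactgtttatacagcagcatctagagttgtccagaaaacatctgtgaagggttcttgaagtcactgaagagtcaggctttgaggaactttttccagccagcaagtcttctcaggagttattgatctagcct
Sptb: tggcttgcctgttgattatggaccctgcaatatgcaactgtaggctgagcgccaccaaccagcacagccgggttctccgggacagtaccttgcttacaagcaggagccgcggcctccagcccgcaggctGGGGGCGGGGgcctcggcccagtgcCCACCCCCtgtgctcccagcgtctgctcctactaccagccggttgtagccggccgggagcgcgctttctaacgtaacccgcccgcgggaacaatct
Kel and Rhd each held 1 AGATAA on the coding strand, beginning 56 and 43 bases before the start. Epb42 held 1 on the opposite strand, read as TTATCT, 226 bases before its start. Sptb held none, but had 3 matches to CCNCNCCC, 2 of which overlap on the opposite strand. Rhag had neither. AGATAA occurred in 9.99% of all 32841 upstream stretches of this length and CCNCNCCC in 45.9%. A match describes the letters only.

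In blood of tumour-bearing mice, the 8 genes lay close to untreated blood. No member was called, a call needing an adjusted p under 0.05 and at least a 2-fold change, against a background of 0.748% of all 12298 genes tested, 0.504% higher and 0.244% lower (limma, Benjamini-Hochberg over all tested probes). The median log2 ratio of the 8 was 0.48, against -0.02 over all genes. For 7 of the 8 the adjusted p alone was under 0.05, as was the unadjusted p; 6884 of all genes had an unadjusted p that low. All 8 were well above background on all 8 blood arrays.

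The largest blood ratios among the members were those of Ank1, which encodes ankyrin-1, and Dmtn, which encodes dematin, an actin-bundling protein of the junctions. Ank1 had log2 ratios from 0.43 to 0.88 (median 0.68), positive on 8 of 8 arrays, with a mean of 0.66 ± 0.05 (SE, n = 8, limma adjusted p = 8.3e-08). Dmtn ranged from 0.16 to 0.92 (median 0.65), with a mean of 0.64 ± 0.07 (SE, n = 8, limma adjusted p = 2.8e-06). Both means lay above zero by many times their standard error, and both were well short of a 2-fold change. Rhd and Kel, the Rh blood group polypeptide and the Kell endopeptidase, had means of 0.52 ± 0.07 and 0.47 ± 0.06. Sptb, the erythroid beta spectrin, averaged 0.48 ± 0.08, and Epb42 averaged 0.40 ± 0.07, each positive on 7 of 8 arrays. Rhag, the Rh-associated glycoprotein that transports ammonium, averaged 0.20 ± 0.04. Slc4a1, band 3 itself, averaged 0.01 ± 0.06 (SE, n = 7, limma adjusted p = 0.92), from -0.34 to 0.25, with the spot of blood 894 left out as an outlier. Its blood arrays fell on both sides of the reference.

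Most of these small blood ratios depended on how the arrays were centred. Centring on the median of each array turned Slc4a1, Sptb, Epb42, Rhag, Rhd and Kel below zero (-0.31 to -0.02), while the median of all genes moved to -0.16. Spike-in centring turned 5 of the 6 below zero, Sptb excepted. Ank1 and Dmtn kept the sign but not the size: their means were 0.09 and 0.09 with median centring (limma adjusted p = 0.75 and 0.59) and 0.11 and 0.12 with spike-in centring (limma adjusted p = 0.92 and 0.91). Blood samples also differed from each other: the median of the members was 0.11 in blood 889 and 0.18 in blood 893, against 0.77 in blood 897.

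In the TIC fraction, all 8 genes were lower than in untreated blood. The falls ran from 1.39 for Rhag to 6.36 for Slc4a1 on the log2 scale, with a median of -4.21, against 0.05 over all genes. All 8 were called lower, where 10.1% of all genes were called lower, 9.33% higher and 19.5% in either direction, and each was below zero on 8 of 8 arrays. Loess itself sets the bulk of all genes near 0. With spike-in centring the median of the 8 was -3.58, against 0.56 over all genes, and with median centring -2.94 against 1.20. Epb42 and Rhag had no TIC spot well above background and entered the test only through their signal in blood RNA. Their calls could hardly go the other way, so they add no support. In bulk RNA, fewer red cells and less message per red cell cannot be told apart.

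Slc4a1, the band 3 gene, showed the brightest member spot and, in the ratios used here, the steadiest fall. Its log2 ratio ranged from -6.90 in TIC 896 to -6.02 in TIC 893 (median -6.26). The mean was -6.36 ± 0.10 (SE, n = 8, limma adjusted p = 3.6e-11), an 82.0-fold fall on this scale. The size depended on the centring: the mean was -4.20 with median centring, -4.84 with spike-in centring and -6.60 in the deposited log ratios. The Slc4a1 spots were well above background on all 8 TIC arrays. Cy5 above local background was 670 to 2138 intensity units in TIC, against 9804 to 23051 in blood. The reference spot, before background correction, read 15583 to 21848 over the 15 arrays used. Every TIC array was below every blood array. Without background correction the TIC log2 ratios of Slc4a1 ran from -6.72 to -5.81, a wider range than -1.07 to -0.80 for Rhag.

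Ank1, the link between band 3 and spectrin, fell by nearly as much. Its TIC log2 ratios ranged from -6.72 to -4.13 (median -6.18), with a mean of -5.85 ± 0.28 (SE, n = 8, limma adjusted p = 5.7e-08). Cy5 signal above background was 68 to 178 in TIC and 1652 to 4181 in blood. The 2 highest log2 ratios were those of TIC 897 and 898, at -4.13 and -4.76.

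Epb42, which stabilises the band 3 and ankyrin contact, had no TIC spot well above background. Its TIC signal was 4.5 to 14 above background, against 229.5 to 650 in blood, so the size of its fall was not measured. The fitted mean log2 ratio was -4.00 ± 0.43 (SE, n = 8, limma adjusted p = 2.6e-05), and it was -3.41 without background correction and -2.91 with median centring. A second Epb42 probe, well above background on 2 TIC arrays, gave -3.56 ± 0.39.

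Sptb and Dmtn, which belong to the spectrin lattice and its actin junctions, had dim spots even in blood. Sptb read 57.5 to 186 above background in blood and 13.5 to 24.5 in TIC, where 4 of 8 arrays were well above background. Its mean was -1.77 ± 0.25 (SE, n = 8, limma adjusted p = 0.00017), from -2.54 to -0.28. Dmtn read 77 to 215 in blood and 14 to 39.5 in TIC, where 6 arrays were well above background, with a mean of -1.57 ± 0.23 (SE, n = 8, limma adjusted p = 2e-04). For both genes the groups did not overlap.

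Rhd and Kel, the blood group proteins, stood together. Rhd ranged from -5.71 to -1.98 (median -4.88), with a mean of -4.42 ± 0.38 (SE, n = 8, limma adjusted p = 5e-06). Kel ranged from -5.51 to -2.11 (median -4.88), with a mean of -4.51 ± 0.36 (SE, n = 8, limma adjusted p = 3e-06). Their means differed by less than the standard error of either. TIC 896 gave a Cy5 signal of 246 for Rhd, against 24.5 to 90.5 in the other 7 TIC samples, while its Kel signal of 66 lay inside the range of the rest. Rhag, the partner of the Rh polypeptide, was not well above background on any TIC array, and its signal there was -1.5 to 12, against 40.5 to 83.5 in blood. The fitted mean log2 ratio was -1.39 ± 0.21 (SE, n = 8, limma adjusted p = 0.00028). It was -1.20 with median centring and -0.95, short of 2-fold, without background correction.

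**Figure D1:**
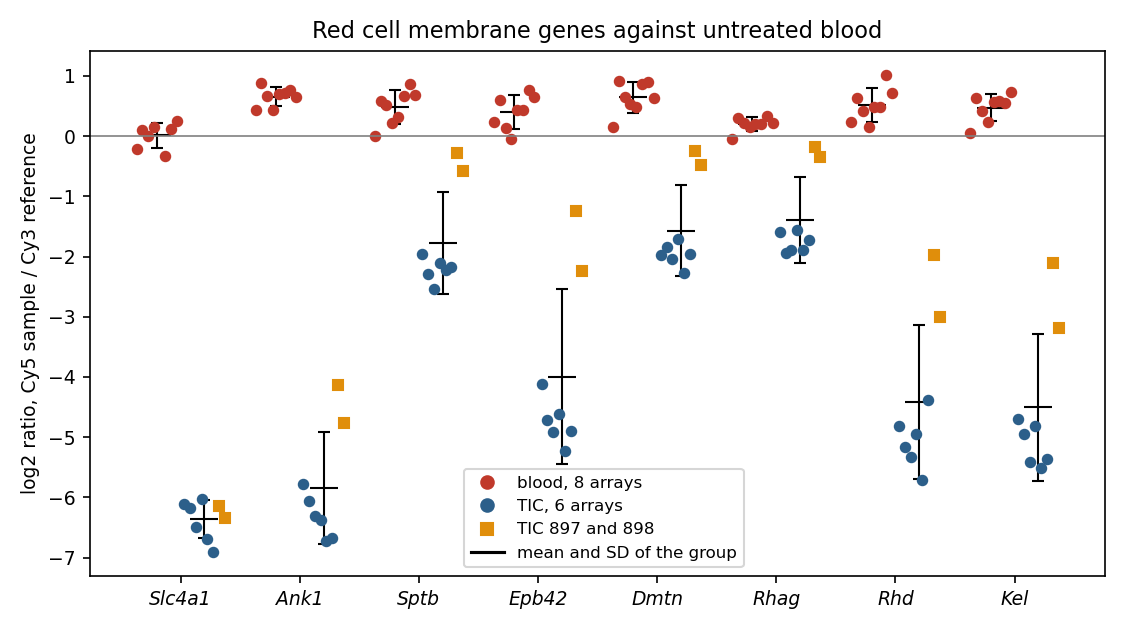
Log2 ratio of each array (Cy5 sample over Cy3 untreated blood) for the 8 genes, one point per array, with mean and SD of each group as a black bar. Blood arrays lie near zero and every TIC point lies below every blood point of the same gene; squares mark TIC 897 and 898, which lie above the other 6 TIC arrays for every gene but Slc4a1.

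The plot of ratios by array shows that TIC 897 and 898 stood apart. The median over the members was -1.61 in TIC 897 and -2.63 in TIC 898, against -5.37 to -4.40 in the other 6. The gap was present with median centring (-1.68 to -0.93 against -3.66 to -2.93) and with spike-in centring (-2.31 to -1.64 against -4.76 to -3.08). It was not present without background correction, where these samples gave -4.01 and -3.87 and the others -4.01 to -3.21. It was absent too with plain subtraction (-6.88 and -6.76 against -6.87 to -6.02) and in the deposited log ratios (-7.10 and -6.90 against -6.96 to -6.46). Their Cy5 signals lay in or near the range of the rest: Epb42 read 6 and 14 above background, against 4.5 to 11 in the other 6, and Ank1 read 138.5 and 178, against 68 to 161.5. Without both samples the means were -6.40 for Slc4a1, -6.32 for Ank1, -5.12 for Kel, -5.06 for Rhd, -4.75 for Epb42, -2.22 for Sptb, -1.97 for Dmtn and -1.77 for Rhag, and all 8 were still called.

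**Figure D2:**
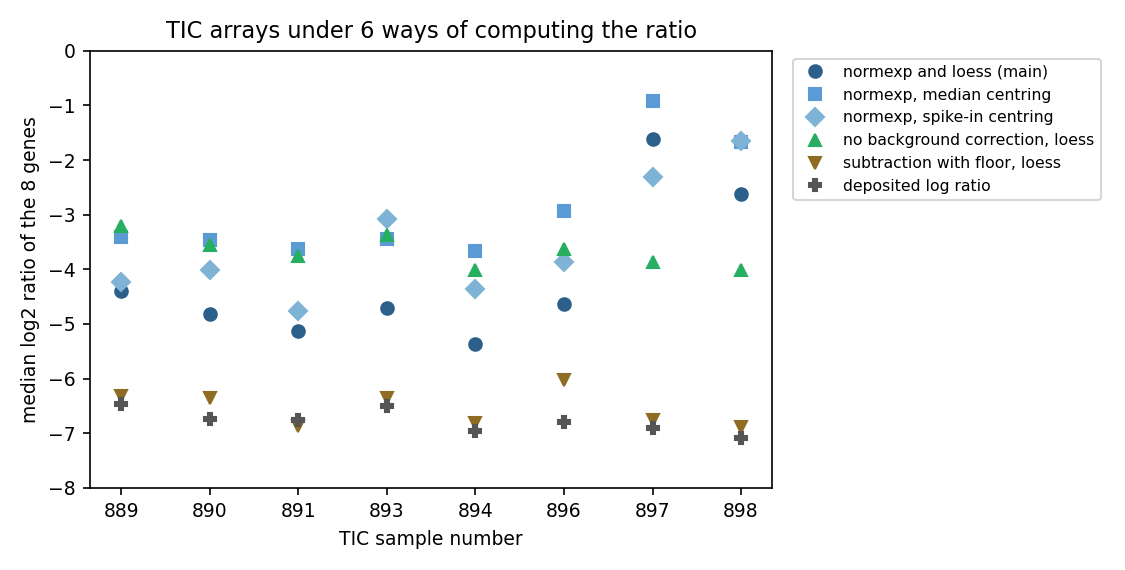
Median log2 ratio of the 8 genes (vertical axis) in each TIC sample (horizontal axis) under 6 ways of computing the ratio, one symbol per way. TIC 897 and 898 lie above the rest under the 3 ways that use normexp correction (-2.63 to -0.93) and among or below them under the other 3.

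In the ratios used here, the sizes of the falls could be ordered for the 6 genes with TIC spots above background on some or all arrays. From the largest fall the order was Slc4a1, Ank1, Kel, Rhd, Sptb and Dmtn, which was also the order of their Cy3 signal above background, a level that depends on the probe too. Neighbours often did not differ beyond their error: Kel and Rhd were closer than 1 standard error, as were Sptb and Dmtn. The order of the brightest genes changed in the deposited log ratios, where Ank1 was at -7.52, Kel at -6.99, Rhd at -6.93, Slc4a1 at -6.60, Sptb at -5.71 and Dmtn at -4.60. It changed in the same way with subtraction and a floor, where Ank1 was at -7.36, Kel at -6.73, Rhd at -6.71 and Slc4a1 at -6.69.

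**Figure D3:**
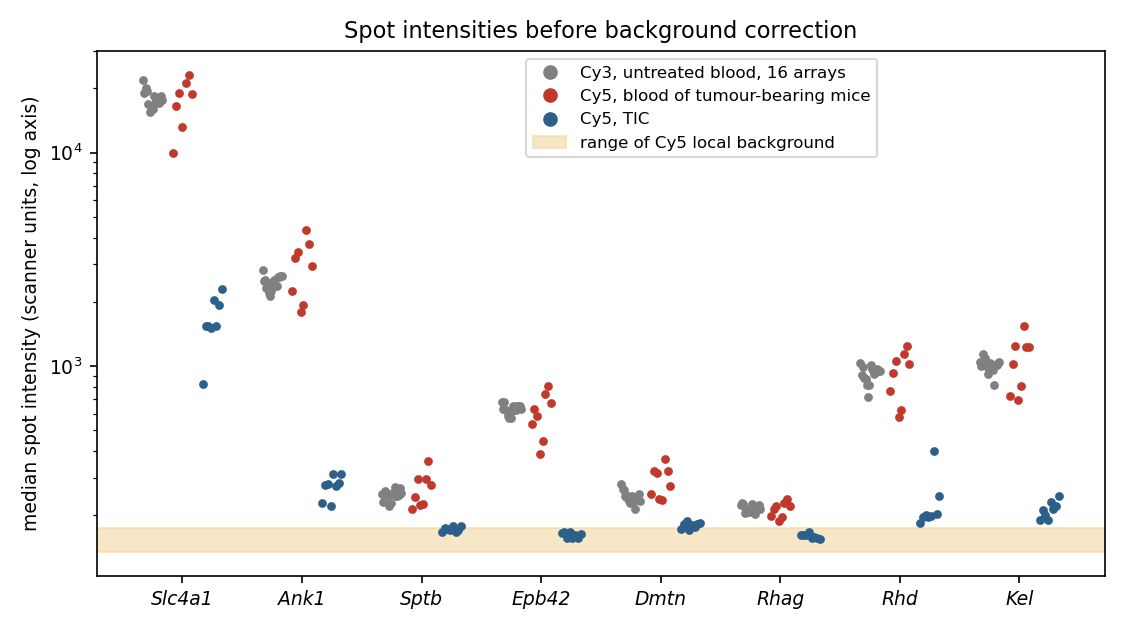
Median spot intensity (log axis, scanner units, no background correction) for each gene, with grey points for Cy3 untreated blood, red for Cy5 blood and blue for Cy5 TIC, one point per array. The tan band spans the local Cy5 background of these spots, 135 to 174; TIC spots of Sptb, Epb42, Dmtn and Rhag lie in it or just above it, whereas those of Slc4a1 lie far above.

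Set directly against the blood of tumour-bearing mice, the TIC fraction was again lower for all 8 genes. All 8 were called lower, where 11.8% of all genes were called lower, 12.1% higher and 23.9% in either direction. The differences of mean log2 ratios had a median of -4.66, against 0.08 over all genes, and the blood and TIC arrays did not overlap for any member. The share of all genes without overlap was not counted, and 9460 of 12298 had an unadjusted limma p under 0.05 here. For Ank1 the difference was -6.51 ± 0.30 (limma adjusted p = 1.3e-12) and for Slc4a1 -6.37 ± 0.13 (limma adjusted p = 5.5e-17), where n was 8 per group except for 7 Slc4a1 blood spots. Kel and Rhd differed by -4.98 ± 0.39 and -4.93 ± 0.41, and Epb42 by -4.40 ± 0.46. Sptb, Dmtn and Rhag had the smaller differences, at -2.25 ± 0.28, -2.21 ± 0.25 and -1.59 ± 0.23, all with limma adjusted p at or below 7.7e-06. For Epb42 and Rhag, with no TIC spot well above background, these sizes are fitted values only. Both genes entered this test only through their signal in blood RNA. With spike-in centring the median difference of the 8 was -3.41, against 0.79 over all genes, and with median centring -2.74 against 1.46.

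The same contrast was taken from Cy5 alone, without the reference channel. Cy5 was normexp-corrected and scaled to the same distribution on all 16 arrays, although more probes were well above background in TIC. Before that scaling, median Cy5 above local background was 18695 in blood and 1384 in TIC for Slc4a1, and 968 and 62 for Kel. The scaled contrast gave differences of the same sign for all 8. They ran from -6.19 for Ank1 and -5.88 for Slc4a1 through -5.41 for Kel, -5.24 for Rhd and -4.90 for Epb42 to -3.45 for Dmtn, -3.14 for Sptb and -2.53 for Rhag. Sptb, Dmtn and Rhag, the dimmest in blood, had larger differences here than in the ratios, as did Kel, Rhd and Epb42; those of Ank1 and Slc4a1 were smaller.

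Different probes of one gene gave different ratios. Of 5 Ank1 probes, the brightest gave -5.85 in TIC against the reference, a second gave -2.74, and 2 dimmer ones gave -0.92 and -0.68, neither of them called. The fifth was too dim to be tested. Sptb probes gave -1.77, -1.25 and -0.20, and Dmtn probes -1.57 and -0.58. Every tested probe of the 8 genes was below zero, but the 2 dimmer Ank1 probes, the 2 dimmer Sptb probes and the dimmer Dmtn probe had no TIC array well above background, so the size of their falls was not measured. All Ank1 probes carry the same RefSeq identifier.

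Other red cell membrane and skeleton genes followed the 8 only in part. Of 27 such genes 23 were tested. In blood 2 were called, both higher: Stom, encoding stomatin, at 1.06 ± 0.06, and Aqp1, the water channel aquaporin-1, at 1.01 ± 0.06. Neither was called with median centring (0.40 and 0.36) or spike-in centring (0.42 and 0.38), each of which called 2 other genes lower, nor without background correction (0.92 and 0.89). In TIC against the reference 11 were lower and 1 was higher, while 11 missed the call; their median was -0.64. Epb41, whose product joins spectrin to actin, was at -5.71 ± 0.15, and Mpp1, the junction protein p55, at -4.29 ± 0.10. Tpm3, a tropomyosin made in many cell types, was at -0.02 ± 0.05 and was not called. The gene called higher was Slc2a1, the glucose transporter GLUT1, at 2.17 ± 0.11, named after its value was seen. Against blood, 12 of the 23 were lower and 1 higher. The split changed with the centring: with median centring 6 were lower and 8 higher in both TIC comparisons, and with spike-in centring 9 were lower and 3 higher against the reference. Of all 12298 genes, median centring called 407 lower and 6852 higher against the reference, and 334 and 7377 in TIC minus blood. Spike-in centring called 1127 lower and 4626 higher against the reference. Epb41 and Mpp1 were called lower in TIC against the reference under both of these centrings.

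The paralogs that other tissues use in place of the red cell forms did not fall as a group. Of 23 such genes 17 were tested. In TIC against the reference 2 were lower, 3 higher and 12 not called, with a median of 0.05. In blood their median was 0.03. Their summed Cy5 signal above background was 56773 to 386248 in TIC, against 1262 to 2475.5 in blood. The summed Cy3 signal differed too, at 14611.5 to 28144.1 on TIC arrays and 2449.5 to 3160.5 on blood arrays. The cause of the Cy3 difference was not tested. Vil1, which encodes villin, a relative of dematin, was at 2.36, Ank3, ankyrin-G, at 1.64, and Add3, a gamma adducin, at -1.92 (all limma, each called). Sptbn1, the general beta spectrin of other cells, was at 0.69, short of a call. With median centring 10 paralogs were called higher in that comparison, and Add3 moved to 0.06. That centring called 6852 of all 12298 genes higher there. The paralog median was then 1.30, against 1.20 over all genes, so this count is not particular to the paralogs.

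Markers of several cell types moved with the 8 genes. Of 18 erythroid markers, such as Alas2 and Hba-a1, 13 were called lower in TIC against the reference, with a median of -3.96, and in blood their median was 0.33. Their summed Cy5 signal was 778001 to 1660032 on the 7 blood arrays that could be summed and 164491 to 508774 in TIC. Their summed Cy3 signal differed too, at 673566 to 1134120 on those blood arrays and 1575640 to 1706268 on TIC arrays, and the cause was not tested. On each TIC array 16 or 17 of the 18 were well above background. Of 9 platelet markers, such as Pf4 and Ppbp, 8 were called lower in TIC, with a median of -4.59, and 3 were called higher in blood, where median or spike-in centring called 0 of them and no background correction called 1. Hepatoma markers moved the other way: 4 of 8 were called higher in TIC against the reference, with a median of 0.93 and a summed Cy5 signal of 119146 to 671927, against 116 to 255 in blood. Their summed Cy3 signal was 7952 to 18152 on TIC arrays and 243 to 272 on blood arrays, although the labels give untreated blood for both. The reference signal of these markers was therefore not equal between the groups, and the cause was not tested. Leukocyte markers had 4 called lower and 1 higher of 11 in TIC against the reference, with a median of -0.74. This balance turned to 2 lower and 5 higher with median centring (median 0.41), where 6852 of all 12298 genes were called higher (median 1.20). With spike-in centring it was 4 lower and 3 higher (median -0.23), where 4626 of all genes were called higher. The 4 endothelium markers tested had a median of -0.30. The part of these cell types in the membrane gene falls was not tested.

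**Figure D4:**
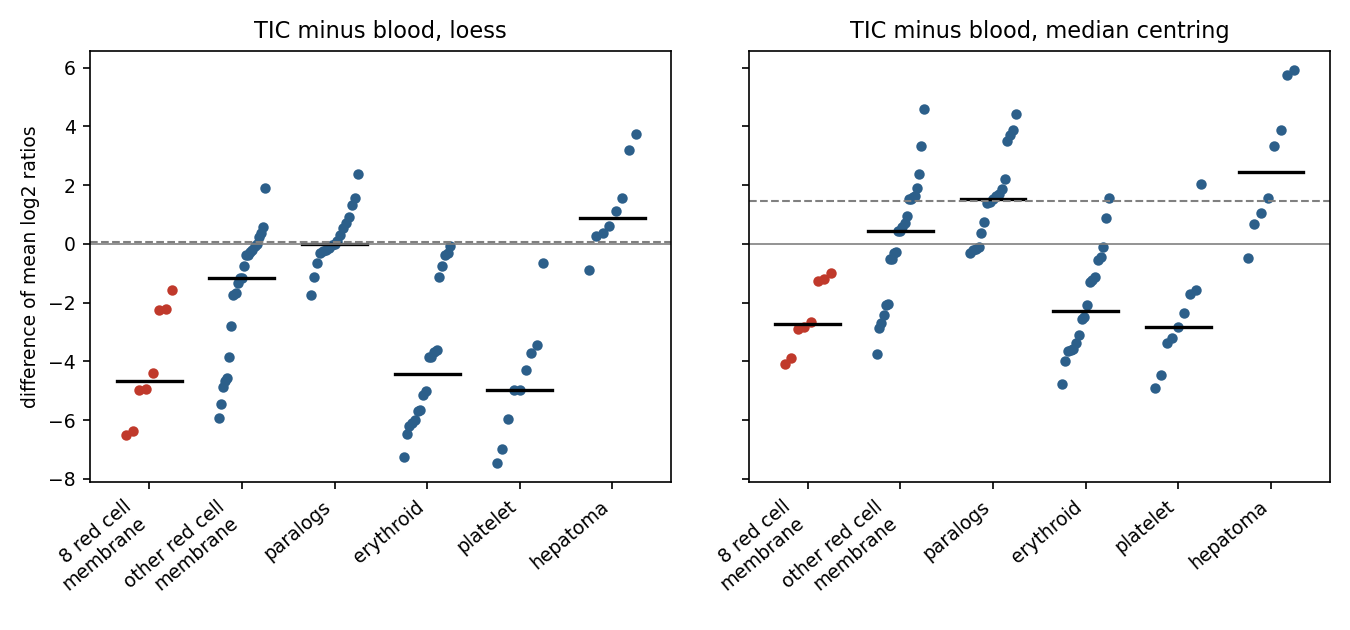
Difference of mean log2 ratios, TIC minus blood (vertical axis), with one point per tested gene in 6 lists (horizontal axis), medians as black lines, and the median of all genes dashed. The left panel uses loess and the right median centring; the 8 membrane genes are below zero in both, with medians of -4.66 and -2.74, while most paralogs lie near or above zero.

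The named genes whose ratios over the 16 arrays came closest to the median of the 8 were Olfr60, Hbq1b, Olfr1097, Olfr930 and P2ry12. Their root mean square differences from that median were 0.21, 0.22, 0.23, 0.27 and 0.31 log2 units. Hbq1b is a theta globin, P2ry12 is the platelet ADP receptor, and the remaining 3 carry olfactory receptor names. Their TIC against reference means ran from -4.36 to -4.03. They were ranked over the same arrays that the members use, so the likeness is a description.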

How the data were processed

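Feature Extraction intensity values, in scanner units, were deposited by the authors for 2 channels of 16 arrays. Per the file headers the scans were read with Feature Extraction 10.5.1.1, while the submitters' processing notes give Agilent Feature Extraction 9.1.3.1. The deposited log10 ratio (red over green) was already background-corrected and dye-normalized by that software, and the deposited value table equals it. It was an alternative here.

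Median spot signals were corrected by normexp with an offset of 50, normalized by loess with control and outlier spots at weight 0, and averaged per probe (limma 3.58.1, R 4.3.3). The offset and the correction shrink the ratios of dim probes. Probes were tested when well above background on 4 of 8 arrays of a group in Cy5, or 8 of 16 in Cy3, which left 26494 of 41174 probes. A gene took its tested probe of highest mean intensity. Symbols came from the RefSeq identifier: 23374 probes had 1, none had several and 17800 had none. Between 87 and 153 outlier spots per array were left out, and no spot was saturated. The number of arrays limits the precision.

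Blood and TIC were tested against 0, which is untreated blood, and against each other, with moderated limma tests and calls at adjusted p under 0.05 and at least 2-fold. All 8 genes were named throughout. From each other list up to 6 genes could be given with values, the 3 with the largest changes among those called and the 3 with the highest mean intensity, and a few of these are not reported here. The 5 genes most like the members had the smallest root mean square difference from their median. The members and lists were chosen with earlier results of these data known. The code was tested on simulated data. Same-numbered blood and TIC samples correlated between -0.17 and 0.20 in their deviations, and 4 of 8 exceeded 0.1, so the numbers were not taken to pair the samples. Alternatives covered background correction, centring, the filter, the probe rule, the slide, the sample number and each replicate. Leaving out TIC 897 and 898 was added after seeing the data.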

Additional observations from a re-analysis of the deposited data

Results flagged for a closer look

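By the labels, both groups were set against the same reference. For all 8 genes the test of the difference between TIC and blood passed (limma, adjusted over all tested probes), as it did for 23.9% of all genes in either direction. The differences of mean log2 ratios were -6.51 for Ank1, -6.37 for Slc4a1, -4.98 for Kel, -4.93 for Rhd, -4.40 for Epb42, -2.25 for Sptb, -2.21 for Dmtn and -1.59 for Rhag. Blood and TIC lay on different slides and were extracted with different kits, so tissue, slide and kit cannot be told apart. No sample of a group passed Dixon's criterion for a lone outlier among the 15 groups of values tested, a test that does not see a pair such as TIC 897 and 898.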

How the results depend on the processing

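All 8 genes were lower in TIC, against the reference and against blood, under every alternative run, and all 31 settings of TIC minus blood kept all 8 calls. Against the reference, Rhag was not called without background correction (7 members called), and slide 4 alone, which holds TIC 897 and 898, called 5 members, with Sptb at -1.32, Dmtn at -1.24 and Rhag at -1.03. Sizes moved more: the log2 ratio of Kel against the reference ran from -6.99 to -3.06. With subtraction and a floor, median centring, spike-in centring and the deposited ratio, the genes called were 270, 894, 811 and 956 in blood, 4272, 7259, 5753 and 5759 in TIC against the reference, and 5132, 7711, 6761 and 7006 in TIC minus blood. No background correction gave 53 in blood, slide 1 alone 61, slide 2 alone 152, and Cy5 signal alone 5125 in TIC minus blood. Higher against lower calls under median centring were 10 and 884 in blood, 6852 and 407 in TIC against the reference and 7377 and 334 in TIC minus blood. Under spike-in centring they were 12 and 799, 4626 and 1127, and 5591 and 1170. In the deposited ratio they were 326 and 630, 3171 and 2588, and 4232 and 2774. The deposited ratio called 1 member in blood, Dmtn at 1.06.

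Reversed blood values were, with median centring, Slc4a1 -0.31, Sptb -0.023, Epb42 -0.26, Rhag -0.20, Rhd -0.14 and Kel -0.16, and with spike-in centring Slc4a1 -0.34, Epb42 -0.24, Rhag -0.18, Rhd -0.11 and Kel -0.14. Slc4a1 was -0.026 with subtraction and -0.060 in the deposited ratio. The cause was not tested. Leaving out 1 replicate gave 75 to 105 genes in blood, 2312 to 2625 in TIC and 2846 to 3193 in TIC minus blood, and took Slc4a1 in blood from -0.029 to 0.068. With the sample number as a replicate block, TIC minus blood again gave 2935 genes and 8 members, with Slc4a1 at -6.32, and it changed no call. Of 8 same-numbered pairs, 5 correlated best with their own number, a hint from the data only. Epb42 and Rhag were not well above background in TIC, which leaves the size of their falls unmeasured.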
